A study of Rattus norvegicus with 43 samples.

Results

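The comparison described here sets freshly isolated rat primary hepatocytes (RPH), taken as the cell pellet before any culture and called RPH 0 h, against the liver of the same animals. Samples were chosen by their titles alone, which took 18 of the 43 arrays of the series, 9 from the pellets and 9 from the livers. They come from 6 of the 15 rat samples, with the same 3 rats on both sides and 3 technical arrays for each rat and group. All animals were male Sprague Dawley rats, and no source used here gives their age. The paper states that they were injected with sodium pentobarbital and killed by exsanguination, and it names no other treatment.

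The study asked how far transcript profiles of hepatocytes depart from those of liver once the cells are taken out and cultured. To make the pellets, livers were digested by perfusion and the released cells collected, and RPH from the same rats were plated for 4, 24 and 48 h. The liver reference was a lobe that was ligated ahead of the perfusion, and no source used here says how much blood it held. A pellet is an enriched and not a pure cell preparation, and it passed through isolation steps that the lobe did not.

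A liver holds parenchymal hepatocytes beside sinusoidal and vascular endothelial cells, Kupffer cells (the resident macrophages), vitamin A-storing stellate cells, bile duct epithelium, portal fibroblasts, smooth muscle, lymphocytes and blood. Hepatocytes themselves differ along the lobule, with urea synthesis and gluconeogenesis strongest near the portal vein and glutamine synthesis and many P450s strongest near the central vein. Detached or stressed cells switch on immediate early genes, whose transcripts are short-lived and encode AP-1 and other transcription factors, within minutes and without new protein synthesis. Heat shock chaperones, chemokines under NF-kappaB and the stress cytokine gene Gdf15 belong to the same early phase.

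The deposited values are MAS5 signals, which are linear intensities that the authors scaled to the same trimmed mean on every array, and they are given below as the mean of the technical arrays of each rat on the log2 scale, turned back to signal. Signals of different genes come from different probes and cannot be ranked against each other. The median signal of a pellet was 112, 89.0 and 97.9 in rats 1, 2 and 3, against 119, 141 and 128 in liver (mean 99.5 ± 11.3 in pellets and 129 ± 10.8 in liver, SD, n = 3 rats each). The difference had p = 0.1 in an exact two-sided permutation test, the smallest p that 3 rats against 3 can give. The beta-actin control's ratio of 3' over 5' probe signal, which rises as RNA breaks down, was 3.90 ± 0.65 in pellets and 4.60 ± 2.05 in liver (exact p = 0.8), with 6.96 in the liver of rat 1. For the Gapdh control it was 1.55 ± 0.22 in pellets and 1.92 ± 0.57 in liver (exact p = 0.4), with 2.58 in the liver of rat 1. Technical arrays of a rat differed by a median SD of 0.148 (log2) in pellets and 0.150 in liver, and the rats of a group by 0.265 in pellets and 0.224 in liver.

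The pellet and the liver of an animal deviated together most clearly in rat 3. Across genes, the deviation of the pellet of rat 1 from its group mean had an r of 0.22 with that of its own liver, and 0.05 with the liver of rat 2. For rat 2, r was 0.02 with its own liver and 0.23 with the liver of rat 1, whereas in rat 3 the pellet and liver were correlated at r = 0.57. These correlations run over genes, which are not independent replicates. Whether the livers of rats 1 and 2 carry the right rat number cannot be told from these values. Every p with the rat as a block rests on those numbers, and so does every fit that leaves out a whole rat. The group means and the main test do not.

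Among 10643 genes, 61 (0.573%) passed an adjusted p of 0.05 in limma between pellets and liver. They were 15 genes higher in pellets (0.141%) and 46 lower (0.432%). A gene was beyond 2-fold higher in 44 cases (0.413%) and beyond 2-fold lower in 403 (3.79%), and the mean absolute log2 fold change was 0.31. All 3 pellets lay above all 3 livers for 394 genes (3.7%) and below them for 1613 (15.2%). The calls depended on single rats, since 0 genes were called without the pellet of rat 3 or without the liver of rat 2 or 3, and 2 without the pellet of rat 2, against 209 without the pellet of rat 1 and 105 without the liver of rat 1. At an unadjusted p under 0.05 there were 1261, 751, 1263, 711, 1973 and 1440 genes in these 6 fits, against 1419 with all samples. Those 1419 genes were 225 higher in pellets (2.11% of all genes) and 1194 lower (11.2%). Both the count and its split changed when arrays were centred on their median signal, which moved the median log2 fold change of all genes to 0.30, against -0.08 as deposited: 51.4% of the 37 genes then called were higher in pellets, against 24.6% of the 61.

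The direction of the difference went with signal level. In the dimmest of 10 equal bins of genes by mean signal the median log2 fold change was -0.41 and 170 of 1065 genes were more than 2-fold lower in pellets, whereas in the 4 brightest bins the median lay between 0.02 and 0.08. Only 40% of all genes had a positive log2 fold change. The part that the lower array medians of the pellets have in this tilt was not tested.

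**Figure D1:**
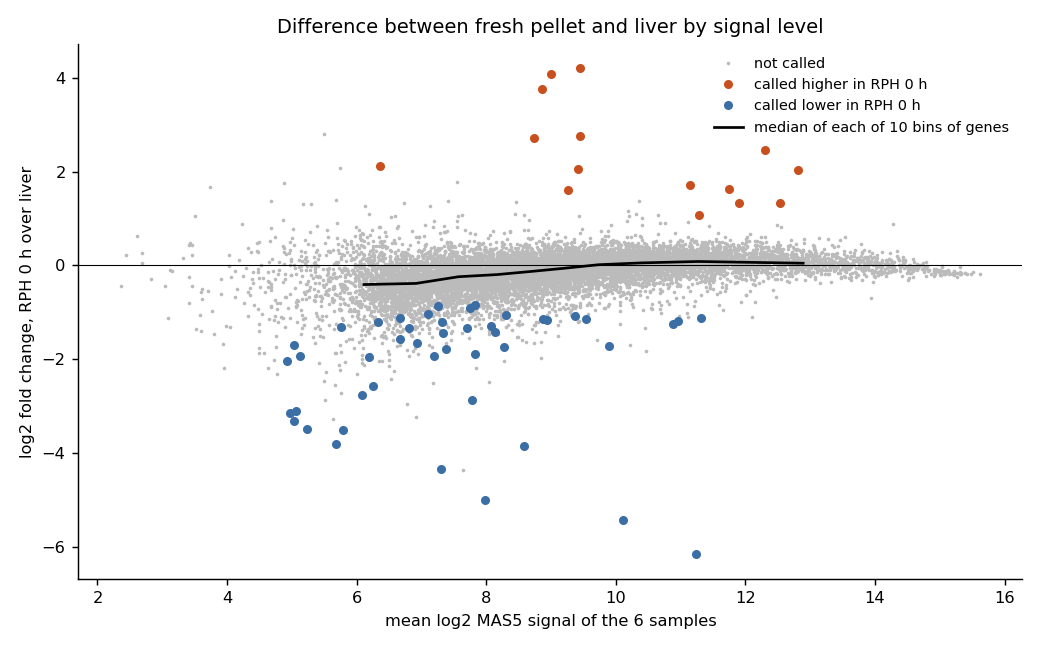
Log2 fold change of RPH 0 h over liver (vertical axis) against the mean log2 MAS5 signal of the 6 samples (horizontal axis) for 10643 genes, each a point, with the 15 called higher and the 46 called lower in colour. The black line joins the medians of the 10 bins of genes and runs from -0.41 in the dimmest to 0.05 in the brightest.

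Stress genes made up most of the genes called higher. Of the 15 genes called higher in pellets, 14 were in the 19 lists of stress and early response genes, which held 453 of the 10643 genes tested. The same lists held 3 of the genes called lower. These 19 lists include ribosome biogenesis factors and a list of actin, tubulin and early adhesion genes, the only one that holds Rhob. The list of AP-1 and other immediate early transcription factors alone held 8. The stress lists together did not rise, as their median log2 fold change was -0.05 and 254 of the 453 genes had a negative value. Over all genes the median was -0.08, and 6381 of 10643 had a negative value. At an unadjusted p under 0.05 (limma), 44 of the 453 were lower, where 11.2% of all genes were. More than 2-fold lower were 27 (5.96%), against 3.79% of all genes. Outside the calls the share was smaller, as 28 of the 44 genes more than 2-fold higher were in stress lists and 15 in no list, and 35 of the 225 genes higher at an unadjusted p under 0.05 were in stress lists. The lists were written with earlier results of these data known. Of the 27 measured immediate early factors, 8 rose, 0 fell and 19 did not pass, with a median log2 fold change of 0.46, against -0.08 over all genes. That median had a range of 0.40 to 0.86 over all settings run. Centring arrays on their median raised every gene alike, so it could not have made the list negative. Relative to the median of all genes in the same setting, the list was at 0.53 as deposited and ranged between 0.47 and 0.90.

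Atf3 and Fos, of the ATF and AP-1 families, showed the largest rises. Atf3, a stress-induced repressor and activator that pairs with Jun, had signals of 1343, 4435 and 4453 in the pellets of rats 1, 2 and 3, against 269, 98.3 and 160 in their livers (log2 change of 4.21, SE 0.54, adjusted p = 0.0115, limma). For Fos, the partner of Jun in AP-1, they were 844, 3537 and 3134 in pellets, against 252, 96.4 and 78.0 in liver (4.09, SE 0.63, adjusted p = 0.0201). The groups did not overlap for either gene, and in both the pellet of rat 1 was the lowest pellet and the liver of rat 1 the highest liver. Jun had 6356, 16882 and 15593 in pellets, against 2485, 1941 and 2034 in liver (2.47, SE 0.29, adjusted p = 0.0109), and Junb rose by 2.05 (SE 0.34). Among the remaining early factors called higher were Egr1, a growth-factor-induced zinc finger protein (2.04), Ier2 (1.63), Klf6 (1.61) and Zfp36, which encodes the AU-rich mRNA decay factor tristetraprolin (1.34). With the rat as a block, Egr1, Klf6 and Zfp36 missed the threshold (adjusted p of 0.0502, 0.0545 and 0.0545).

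Rat 1 stood apart in the called genes. Its pellet was the lowest of the 3 for 13 of the 15 genes called higher, and its liver was the highest for 13 of them. That liver also had the highest 3' over 5' ratios for both controls (6.96 and 2.58), and the part of RNA quality in this pattern was not tested. Among all genes tested, the pellet of rat 1 was the lowest for 2849 of 10643 and its liver the highest for 3689. Without rat 1 altogether, 177 genes were called in place of 61, and 50 of the 61 were among them. Without rat 2 altogether 1 gene was called, which was not among the 61, and without rat 3 altogether 0 were.

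**Figure D2:**
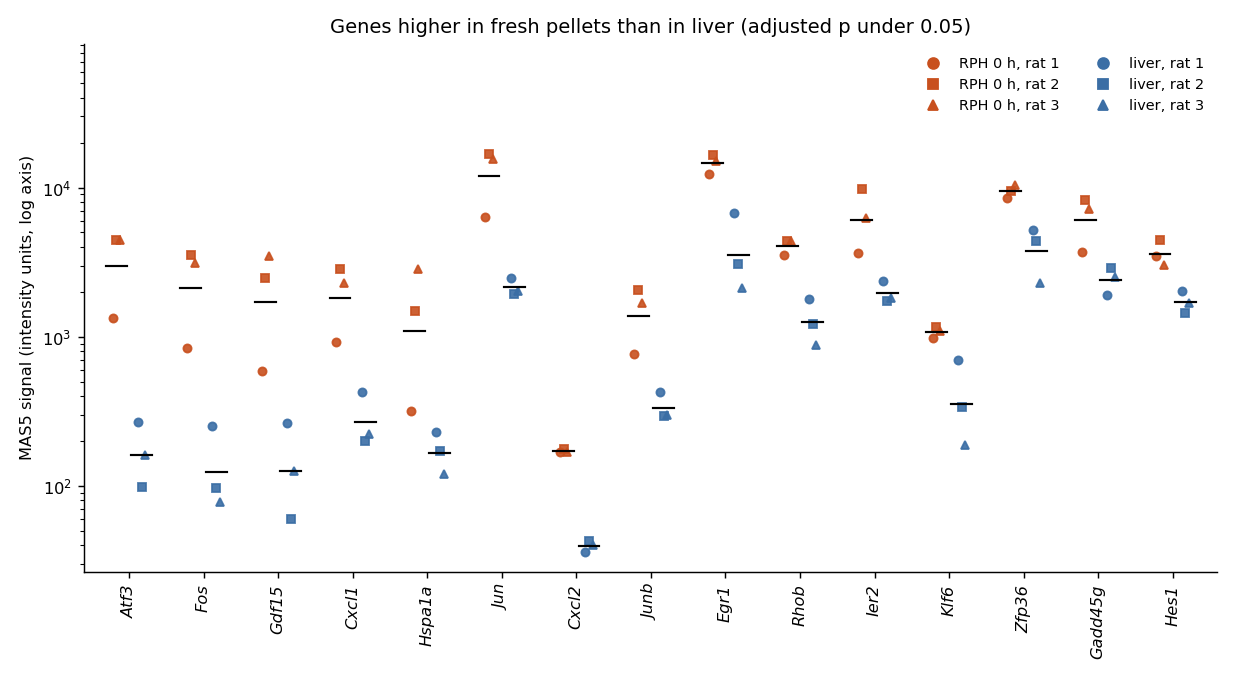
MAS5 signal (log axis) of the 15 genes called higher in pellets, with RPH 0 h (orange) left of liver (blue), 1 symbol for each rat and a bar at the mean of the log2 values. All 3 pellets lie above all 3 livers for each gene, and the circle of rat 1 is the lowest pellet for 13 genes.

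RefSeq promoters (GRCr8, 250 bases before to 50 after the start) were found for 12 of these 15 genes, all but Fos, Jun and Atf3. They were searched on both strands for the AP-1 site TGAGTCA, the cAMP response element TGACGTCA, the serum response element (the capitals in the Egr1 line), the heat shock element (GAA, TTC and GAA with NN between them) and, added after the data were seen, an NF-kappaB site (the capitals in the Cxcl1 line). No promoter held more than 1 of these motifs. The AP-1 and heat shock letters were in 0 of the 12, against 4.534% and 0.736% of 27457 promoters (3.488% and 0.426% of those of tested genes). Each of the others was in 1 promoter, shown here for the 150 bases before the start because these are the called genes with a match, with the matched letters in capitals.
Egr1 (chr18:26736928-26737077, GRCr8, + strand): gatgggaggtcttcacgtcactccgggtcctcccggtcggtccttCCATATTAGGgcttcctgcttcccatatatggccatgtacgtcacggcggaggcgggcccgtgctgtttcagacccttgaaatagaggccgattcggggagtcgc
Ier2 (chr19:40399223-40399372, GRCr8, + strand): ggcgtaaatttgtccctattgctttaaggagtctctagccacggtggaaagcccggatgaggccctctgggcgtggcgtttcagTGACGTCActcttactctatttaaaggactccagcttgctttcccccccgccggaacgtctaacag
Cxcl1 (chr14:17479322-17479471, GRCr8, - strand): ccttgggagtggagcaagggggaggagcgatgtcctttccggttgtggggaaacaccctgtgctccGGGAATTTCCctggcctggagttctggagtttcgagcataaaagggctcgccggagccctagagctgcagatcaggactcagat
The serum response element lay 105 bases before the start of Egr1 and these letters were in 0.04% of all promoters (0.079% of those of tested genes). The cAMP element lay 66 bases before the start of Ier2 (1.912% and 3.151%), and the NF-kappaB site 84 bases before that of Cxcl1 (0.08% and 0.123%). Only exact letters were counted, so the variant ggggatttcc in the Cxcl2 promoter was not. Among 35 promoters of genes called lower, the AP-1 letters were in 4 and the cAMP element in 1. A match describes the sequence and does not show that a factor bound there. Each gene had 1 window at 1 annotated start, and whether that start is the one in use was not checked, for Hspa1a included. The absence of a match thus does not show that a gene lacks the element.

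Cytokine genes formed the next group. Gdf15, a stress-induced member of the TGF-beta family, had signals of 585, 2490 and 3465 in pellets, against 265, 59.9 and 126 in liver (log2 change of 3.76, SE 0.63, adjusted p = 0.0257). Cxcl1, a neutrophil chemokine, had 917, 2837 and 2300 in pellets, against 427, 201 and 221 in liver (2.77, SE 0.50, adjusted p = 0.0322). In both, as for Fos, the pellet and liver values lay nearest each other in rat 1. Cxcl2, a related chemokine, was unlike them in that its pellets were nearly equal, at 169, 177 and 168, against 36.0, 42.9 and 40.0 in liver (2.11, SE 0.37, adjusted p = 0.0257). Chemokine, cytokine and growth factor genes as a list did not move one way, as 3 of 33 rose, 0 fell and the median was -0.05. Of the 27 NF-kappaB inhibitors and targets, 2 rose, both of these chemokines, and the median was -0.16.

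Hspa1a, the inducible heat shock protein 70 gene, was the only one of 23 heat shock and co-chaperone genes to pass. It had 318, 1481 and 2824 in pellets, against 228, 170 and 120 in liver (log2 change of 2.72, SE 0.56, adjusted p = 0.0499), and the call was lost with the rat as a block (adjusted p = 0.0602). Its near-identical copy Hspa1b may share the probes, and in rat 1 the pellet exceeded the liver least. The list had a median of 0.09.

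Other single rises came from separate pathways. Rhob, a small GTPase gene with early-response kinetics, had 3526, 4379 and 4413 in pellets, against 1794, 1225 and 879 in liver (log2 change of 1.71, SE 0.24, adjusted p = 0.0115). Gadd45g, a stress sensor that activates p38 and JNK signalling, had 3680, 8278 and 7239 in pellets, against 1898, 2891 and 2506 in liver (1.33, SE 0.27, adjusted p = 0.0479). The third, Hes1, a Notch target and repressor, was the one risen gene outside all lists, with 3480, 4452 and 3045 in pellets, against 2038, 1441 and 1687 in liver (1.08, SE 0.20, adjusted p = 0.0356). Pellets and livers did not overlap for any of these genes.

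Further stress programmes had few or no called genes. Among the 29 integrated stress response genes only Gdf15 rose and the median was 0.09, and among the 17 p53 target and DNA damage genes only Gadd45g. No gene passed among 22 endoplasmic reticulum chaperone and unfolded protein response genes (median -0.06, extremes -0.32 and 0.27), with 0 at an unadjusted p under 0.05 as well. NRF2 targets (26 genes, median -0.01), hypoxia-inducible genes (26, -0.11), metallothionein and metal response genes (9, -0.14), acute phase and IL-6 response genes (29, -0.12), MAP kinase phosphatases and feedback inhibitors (16, 0.08), apoptosis regulators (22, -0.25) and autophagy and lysosome genes (24, -0.01) also had 0 called. At an unadjusted p under 0.05 these last 7 lists had 3, 5, 1, 2, 1, 1 and 1 genes. Centring arrays on their median turned the negative medians among them positive, as it raised all genes.

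Glucocorticoid receptor targets (17 genes, median 0.06) had Gadd45g as their single call, and cAMP and fasting-response genes (24, median 0.10) had none. Interferon-responsive genes had 0 of 28 called and a median of -0.24, with Irf8, a transcription factor of myeloid cells, at -1.46 (adjusted p = 0.0607) and the antiviral gene Rsad2 at -1.97 (adjusted p = 0.11).

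Some of these uncalled genes had large but scattered values. Il1rn, the interleukin 1 receptor antagonist gene, had 22.3, 162 and 44.9 in pellets, against 21.1, 14.2 and 13.6 in liver (log2 change of 1.77, SE 0.50, adjusted p = 0.158). Irs1, an insulin receptor substrate gene, had 208, 447 and 216 in pellets, against 148, 79.6 and 99.8 in liver (1.36, SE 0.30, adjusted p = 0.0684). For both, the groups did not overlap although the test was not passed. Nr4a1, an orphan nuclear receptor of the immediate early class, likewise had 392, 847 and 532 in pellets, against 276, 254 and 149 in liver (1.36, SE 0.30, adjusted p = 0.0684). Dusp1, a MAP kinase phosphatase, overlapped, at 12116, 21042 and 17537 in pellets, against 7953, 16616 and 13185 in liver.

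After 4 h in culture, some early genes were further above liver than at 0 h and others were near it. Both comparisons use the same livers, so their values are set side by side and were not tested against each other. Relative to liver, Cxcl1 had a log2 fold change of 5.24 at 4 h beside 2.77 at 0 h, Cxcl2 5.82 beside 2.11, Klf6 3.60 beside 1.61 and Rhob 3.32 beside 1.71, and Atf3 had 3.26 beside 4.21. Fos was at 0.23 (adjusted p = 0.785), Gdf15 at 0.80 (adjusted p = 0.313), Zfp36 at 0.03 and Gadd45g at -0.59, none of which passed at 4 h. Hes1 was lower than liver at 4 h (-1.17, adjusted p = 0.000408). Of the 15 genes, 8 were called higher and 1 lower at 4 h, when 16.4% and 29.8% of all genes were called. Ribosome biogenesis factors, as a further group, had 0 of 45 called in pellets with a median of -0.03, beside a median of 1.27 at 4 h.

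**Figure D3:**
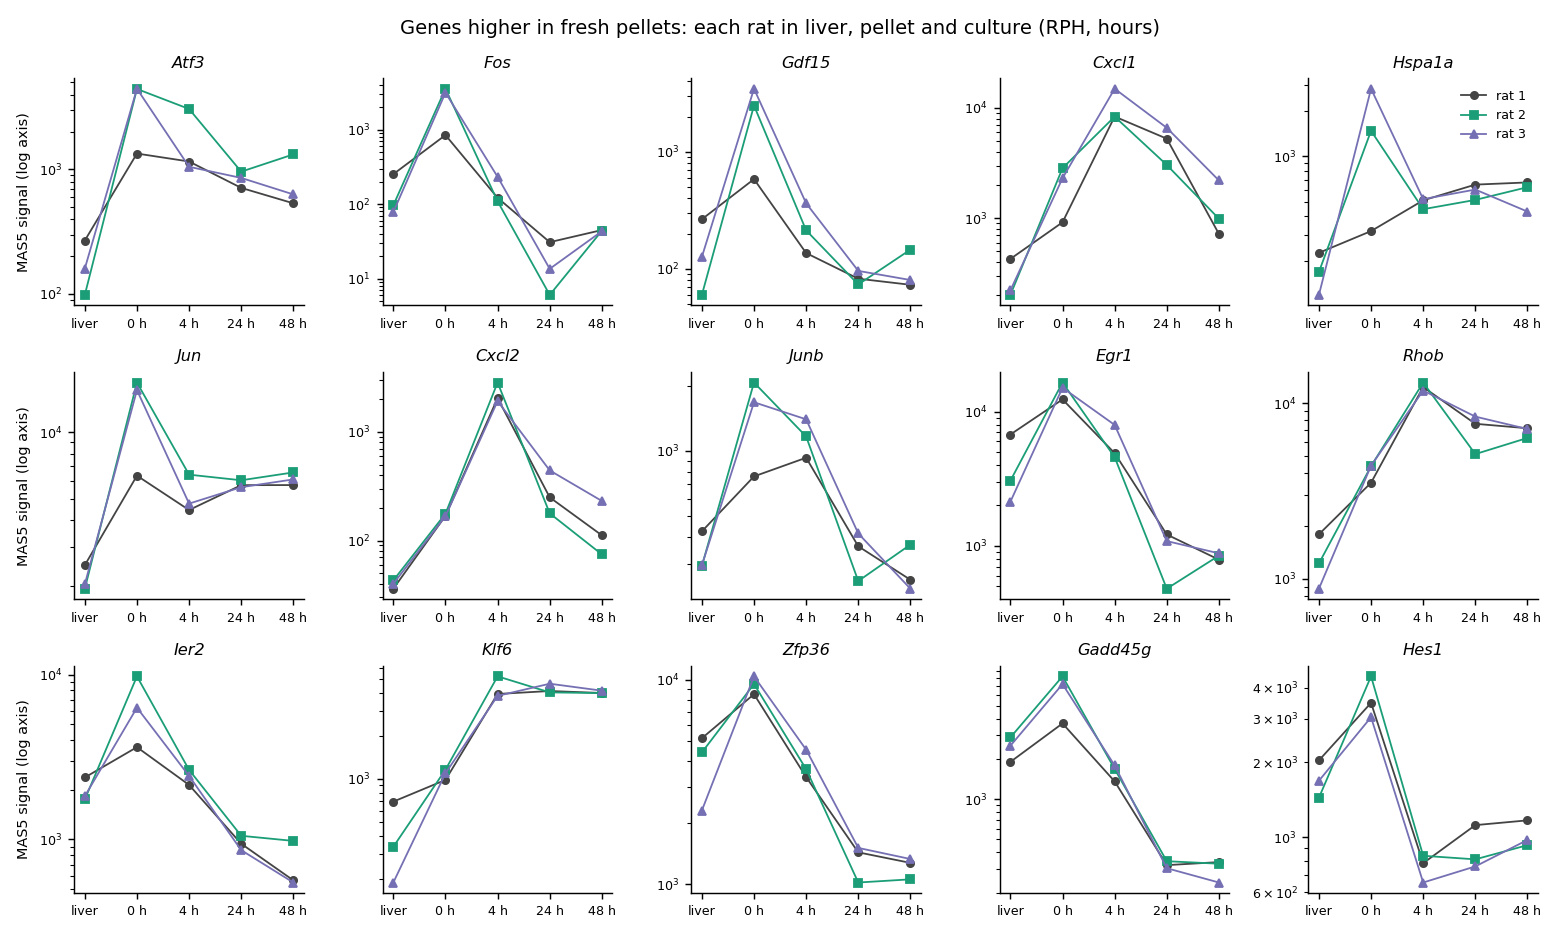
MAS5 signal (log axes) of the 15 genes called higher in pellets, 1 line for each rat, in liver, at 0 h and after 4, 24 and 48 h in culture. Fos and Gdf15 peak at 0 h, and Cxcl1 and Cxcl2 have higher means at 4 h than at 0 h.

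No gene of the hepatocyte lists was called. Across these 8 lists, 0 of 271 genes passed in limma (5 higher and 2 lower at an unadjusted p under 0.05) and the median log2 fold change was -0.01. The lists include 53 oxidative phosphorylation subunits and 38 cytosolic ribosomal proteins, which are not particular to hepatocytes. With 0.573% of all genes called, a count of 0 is near the background. For 233 of the 271 (86%) the 95% interval of the difference lay within 2-fold, against 73.4% of all genes. Most of them, 202, were in the brightest of the 10 bins of genes, and there the share was 94.6%, against 94.2% of 761 genes in no list. Several of the signals given next are near the highest of the arrays, which were between 41644 and 53832 in pellets and between 46264 and 61207 in liver, and how far bright signals were compressed was not tested. Alb, the serum albumin gene, had 26965, 40544 and 30853 in pellets, against 36862, 37902 and 34896 in liver (log2 change of -0.18, 95% interval -0.61 to 0.26). Hnf4a, the nuclear receptor that maintains hepatocyte identity, had 11100, 13141 and 7906 in pellets, against 11925, 9518 and 9133 in liver (0.05, interval -0.35 to 0.45). Slc10a1, the sodium-dependent bile acid uptake transporter gene, had 23029, 31254 and 29643 in pellets, against 23784, 29757 and 27570 in liver (0.04, interval -0.45 to 0.54). Groups overlapped for all 3 genes.

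Pericentral and periportal genes were both near the liver level. The 28 pericentral genes had a median of 0.12 and the 25 periportal genes a median of 0.04, with 0 called in either list and 3 and 1 genes at an unadjusted p under 0.05. Glul, glutamine synthetase of the cells around the central vein, had 6625, 8558 and 9607 in pellets, against 5702, 6891 and 7748 in liver (log2 change of 0.28, 95% interval -0.10 to 0.66). Cyp2e1, a pericentral P450 that oxidizes ethanol, had 29998, 29692 and 33190 in pellets, against 34862, 35454 and 36005 in liver (-0.20, interval -0.89 to 0.50). Its pellets were all below the livers, whereas those of Glul overlapped them. On the periportal side, Hal, histidine ammonia-lyase, had 2829, 5922 and 2565 in pellets, against 2959, 2793 and 2154 in liver (0.42, interval -0.34 to 1.19). Cps1, the first enzyme of the urea cycle, had 28848, 31489 and 28380 in pellets, against 32883, 32564 and 30621 in liver (-0.12, interval -0.47 to 0.24).

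Further hepatocyte functions followed the same pattern. Genes with the smallest p in the 2 zonation lists were Gstm3, a glutathione transferase (1.05, adjusted p = 0.193), Cpox, a haem synthesis enzyme (0.41, adjusted p = 0.228), Tat, tyrosine aminotransferase (0.61, adjusted p = 0.32), and the urea cycle gene Otc (0.30, adjusted p = 0.566). The medians were 0.00 for 37 P450s and conjugating enzymes, 0.05 for 31 membrane transporters, 0.06 for 24 hepatocyte transcription factors and 0.00 for 53 nuclear-encoded oxidative phosphorylation subunits. For 43 secreted plasma proteins it was -0.10 and for 38 cytosolic ribosomal proteins -0.11. Apoc2, which activates lipoprotein lipase, had 26310, 27559 and 25244 in pellets, against 31848, 31397 and 28584 in liver (-0.21, adjusted p = 0.548). Ahsg, the fetuin A gene, was at -0.26 (adjusted p = 0.539), and for both genes all pellets were below all livers without passing the test. Under centring on the array median, the medians of these 8 lists lay between 0.27 and 0.50, as the whole table moved up.

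Genes of cells other than hepatocytes were lower as a body. The 18 lists used for them also hold 35 S phase and mitosis genes, which are not particular to such cells. In these lists, 19 of 329 genes fell, 0 rose and 310 did not pass, where 0.432% of all genes were called lower and 0.141% higher. All 3 pellets lay below all 3 livers for 177 of them and above for 1, against 15.2% and 3.7% of all genes, and the median log2 fold change was -0.70, against -0.08. In liver RNA, fewer cells of a type and less RNA per cell cannot be told apart. At matched signal levels the other-cell genes still had lower medians than the rest, at -0.88 in the dimmest bin, against -0.40 for genes in no list, and at -0.77 in the eighth bin, against 0.06, while in the brightest bin they were at -0.08, against 0.07. As medians, the lists ran from -1.75 for 4 neutrophil, basophil and mast cell genes to -0.20 for 35 S phase and mitosis genes. When arrays were centred on their median, which put the median of all genes at 0.30, all stayed negative except nerve and Schwann cell markers (0.04) and S phase and mitosis genes (0.18).

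**Figure D4:**
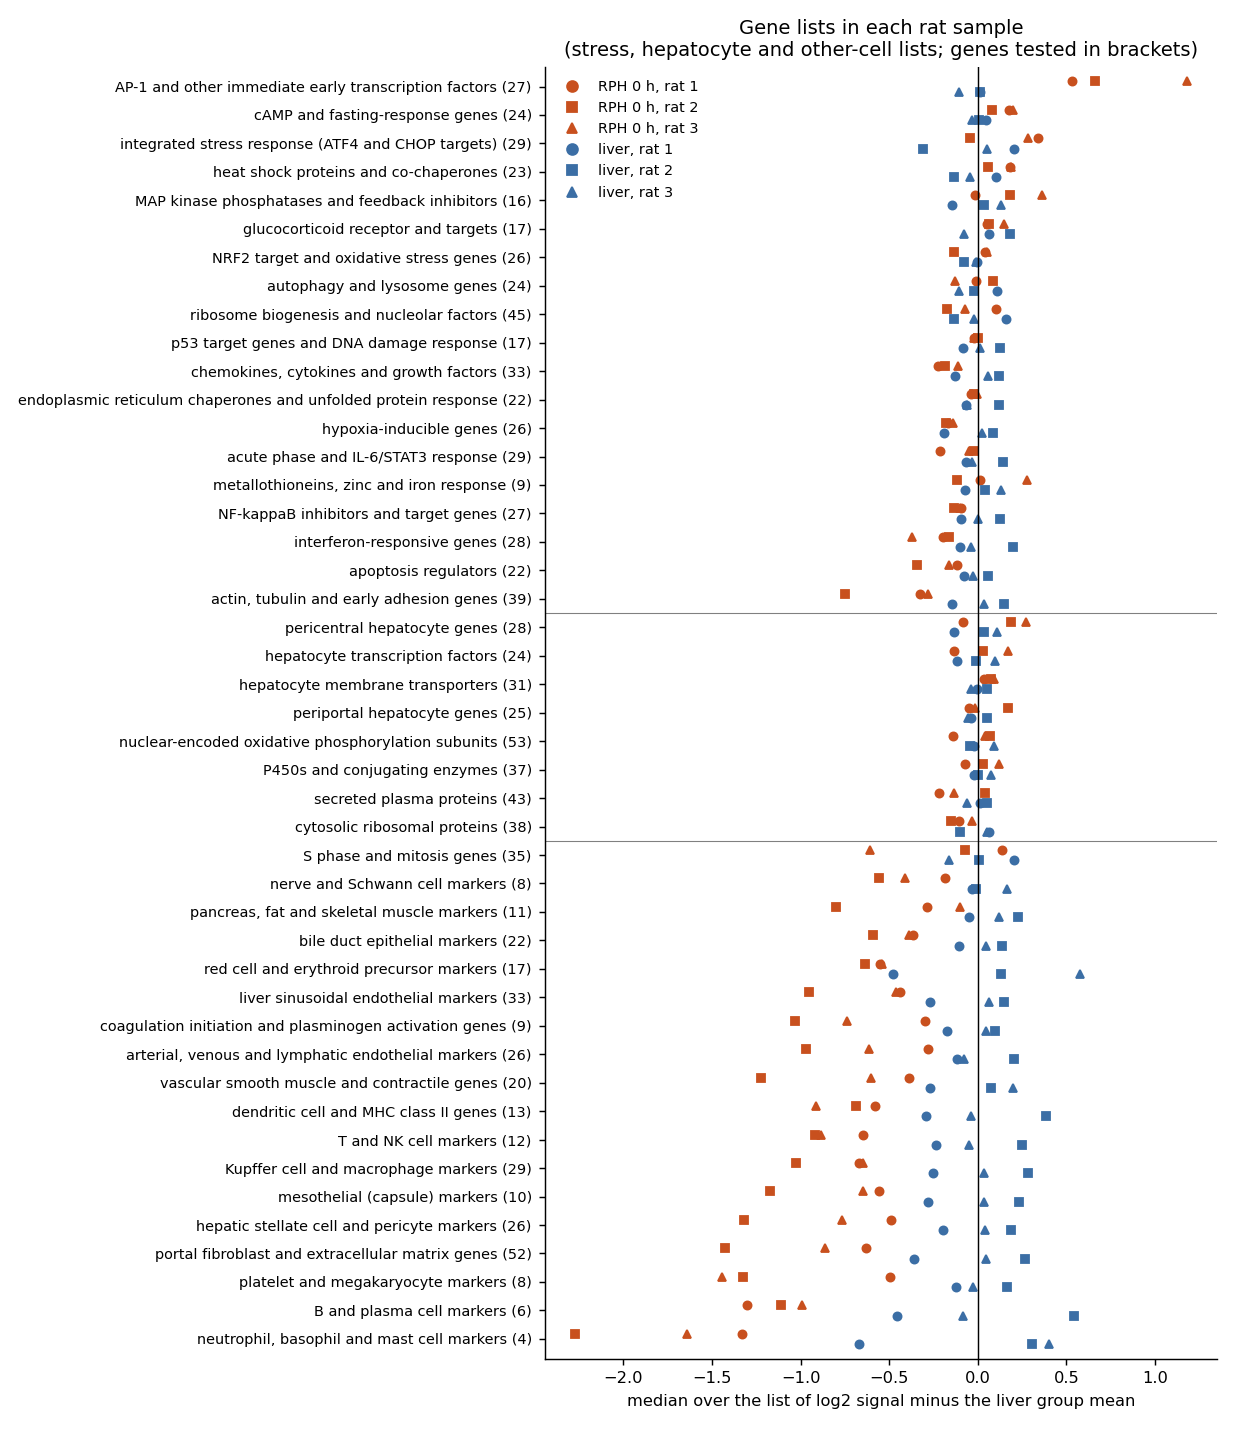
Median over each of 45 lists of the log2 signal minus the liver group mean (horizontal axis), with RPH 0 h (orange) above liver (blue) and 1 symbol for each rat; the genes tested are in brackets. Pellets lie left of all livers for 17 of the 18 other-cell lists, all but S phase and mitosis genes, and hepatocyte lists stay near 0.

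Red cell transcripts had the largest falls. Hbb, a beta globin gene, had signals of 921, 69.7 and 355 in pellets, against 5219, 41369 and 38946 in liver (log2 change of -6.16, SE 1.05, adjusted p = 0.0257). Hba-a3, an alpha globin gene, had 527, 62.7 and 145 in pellets, against 2114, 12672 and 14460 in liver (-5.43, SE 0.77, adjusted p = 0.0121). In both, the liver of rat 1 was far below the other livers and its pellet was the highest pellet, yet the groups did not overlap. Alas2, the erythroid enzyme that starts haem synthesis, had 161, 15.2 and 36.2 in pellets, against 240, 2532 and 4869 in liver (-5.01, SE 0.96, adjusted p = 0.0388). Its call was lost with the block (adjusted p = 0.0509). Globin genes have near-identical copies that the probes may not separate. Of 17 red cell and erythroid precursor genes, only these 3 fell, and the median of the list was -0.58.

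Platelet and leukocyte genes followed. Pf4, the platelet chemokine, had 167, 36.8 and 86.9 in pellets, against 291, 863 and 816 in liver (log2 change of -2.86, SE 0.54, adjusted p = 0.0373). Gzma, a granzyme of NK and cytotoxic T cells, had 70.4, 70.2 and 64.2 in pellets, against 187, 237 and 227 in liver (-1.66, SE 0.31, adjusted p = 0.0357), so the samples of each group were close together. Neutrophil genes S100a8 and S100a9 were at -2.86 and -2.15 without passing (adjusted p of 0.0785 and 0.0607). Antigen presentation was represented by Cd74, the MHC class II invariant chain, with 1828, 1788 and 1608 in pellets, against 3063, 5230 and 3311 in liver (-1.11, SE 0.22, adjusted p = 0.0466). With it fell the class II genes RT1-Da (-1.19) and RT1-Ba (-1.25), which belong to a multigene family. Rac2, a GTPase of blood cells, fell by 1.09 on the log2 scale (adjusted p = 0.0463), a call that the block ended (adjusted p = 0.0546).

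Genes of the vessel wall and of the matrix were also among those that fell. Vwf, the von Willebrand factor of larger vessels, had 28.8, 6.94 and 22.3 in pellets, against 126, 309 and 167 in liver (log2 change of -3.50, SE 0.54, adjusted p = 0.0201). Tagln, the smooth muscle actin-binding protein transgelin, had 11.7, 8.86 and 11.3 in pellets, against 73.2, 97.4 and 111 in liver (-3.14, SE 0.41, adjusted p = 0.0115). Mgp, a matrix protein that inhibits calcification, had 247, 59.6 and 69.6 in pellets, against 722, 2040 and 2066 in liver (-3.84, SE 0.54, adjusted p = 0.0115). No pellet reached a liver value for these genes. The fold change was -3.49 for Tpm2, a muscle tropomyosin, and -3.33 for Mfap4, an elastic fibre protein. The sinusoidal list had 1 of 33 called, Plvap, which forms diaphragms of endothelial pores, with 116, 96.0 and 86.0 in pellets, against 176, 358 and 300 in liver (-1.44, SE 0.28, adjusted p = 0.0449, and 0.0502 with the block).

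Bile duct, capsule and coagulation lists had 1 call each. Sctr, the secretin receptor of bile duct cells, had 17.4, 17.8 and 19.5 in pellets, against 55.2, 76.9 and 48.4 in liver (-1.70, SE 0.33, adjusted p = 0.0395, and 0.0509 with the block). Slpi, a secreted protease inhibitor, had 748, 433 and 454 in pellets, against 1267, 2551 and 1597 in liver (-1.71, SE 0.28, adjusted p = 0.0257). Both were lower in every pellet than in any liver. Procr, the endothelial protein C receptor, was at -1.29 (adjusted p = 0.045, and 0.0509 with the block), and Plac8, counted among arterial, venous and lymphatic endothelial markers, at -1.14. Stellate cell and pericyte markers had 0 of 26 called in limma (10 lower at an unadjusted p under 0.05, against 11.2% of all genes) and a median of -0.86.

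The other lists had similar counts. Kupffer cell and macrophage markers (1 of 29 called lower, median -0.78), MHC class II and dendritic cell genes (3 of 13, -0.75), T and NK cell markers (1 of 12, -0.75) and platelet markers (1 of 8, -1.18) were the immune and blood lists with a call, and B and plasma cell markers had 0 of 6 (-1.18). Portal fibroblast and matrix genes (2 of 52, -1.01), smooth muscle genes (2 of 20, -0.74) and arterial, venous and lymphatic endothelial markers (2 of 26, -0.68) had 2 calls each. The median was -0.82 for mesothelial markers, -0.65 for coagulation genes, -0.51 for bile duct markers and -0.62 for sinusoidal markers. Nerve markers (0 of 8, -0.34) and pancreas, fat and muscle markers (0 of 11, -0.40) had no call in limma, with 4 and 3 genes lower at an unadjusted p under 0.05. Of all genes, 11.2% were lower at that threshold.

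These medians were closer to 0 without rat 2. Without rat 2 the median was -0.48 for stellate, -0.62 for matrix, -0.35 for sinusoidal, -0.41 for arterial, venous and lymphatic, -0.52 for mesothelial, -0.31 for red cell, -0.40 for coagulation, -0.20 for nerve and -0.10 for pancreas, fat and muscle genes, against -0.06 over all genes. Without rat 1 the pancreas, fat and muscle list was at -0.68. The S phase and mitosis list was at 0.12 without the pellet of rat 3 and at -0.35 without that of rat 1. No other of the 18 medians changed sign when 1 sample or 1 rat was left out.

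Several of these pellet signals were very low. Of the 46 genes called lower, 11 had a mean under 32 in pellets, where MAS5 signals are imprecise. When 32 was first added to every signal, the log2 fold change was -2.08 for Vwf, -1.46 for Tagln, -1.86 for Tpm2 and -1.71 for Mfap4, and 43 of the 46 were still called. The 3 that were not are Tagln (adjusted p = 0.0652), Sctr (adjusted p = 0.0744) and Arg2 (adjusted p = 0.066).

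The defining markers of resident cell types given next did not pass the test. Clec4f, a Kupffer cell lectin, had 3791, 3264 and 2872 in pellets, against 5172, 6223 and 4181 in liver (log2 change of -0.64, adjusted p = 0.175), and Cd5l, another macrophage gene, 3651, 3690 and 3331, against 5265, 5297 and 4924 in liver. Stab2, the hyaluronan scavenger receptor of sinusoidal endothelium, had 1693, 621 and 1383 in pellets, against 2063, 1826 and 2110 in liver (-0.82, adjusted p = 0.475). Reln, of stellate cells, was at -0.82 (adjusted p = 0.306). In these 4 genes all pellets were below all livers, and none passed the test. The same held for Cd163 of Kupffer cells (-0.72), Gpr182 of sinusoidal endothelium (-0.60), and Dcn (-1.21) and Colec11 (-0.86) of stellate cells. Groups overlapped for Lyve1 of sinusoidal endothelium (-0.34) and Lrat of stellate cells (-0.91), which did not pass either. Epcam, of bile duct epithelium, was not lower, with 854, 901 and 935 in pellets, against 873, 742 and 762 in liver (0.18, adjusted p = 0.734). Krt19, another bile duct marker, had 84.2, 57.5 and 148 in pellets, against 92.4, 175 and 222 in liver (-0.77, adjusted p = 0.544). MAS5 signals are always positive, so no marker could be at 0 and a low signal does not show that a marker was expressed.

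Expressed as a share of the liver level, genes of resident cell types kept part of their signal in the pellets. The median gene of the Kupffer cell and macrophage list was at 58.3% of liver, that of the sinusoidal endothelial list at 65.2%, of the stellate list at 55.2%, of the bile duct list at 70.4% and of the portal fibroblast and matrix list at 49.8%. These shares describe signal as deposited and do not count cells. With centred arrays, the Kupffer, sinusoidal, stellate and bile duct lists had median log2 fold changes of -0.40, -0.24, -0.48 and -0.13. As deposited, they had -0.78, -0.62, -0.86 and -0.51. Centring also moved the median of all genes from -0.08 to 0.30, so the distance of these lists from all genes stayed the same. By rat, against the mean of the livers, the fibroblast and matrix list was at 64.5%, 37.2% and 55% in the pellets of rats 1, 2 and 3, against 78%, 120% and 103% in their livers. The sinusoidal list was at 73.7%, 51.6% and 72.7% in pellets, against 82.8%, 111% and 105% in liver. The pellet of rat 2 was thus the lowest in both lists and the liver of rat 1 the lowest liver. Of the 46 genes called lower, the liver of rat 1 was the lowest liver for 39 and its pellet the highest pellet for 38.

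**Figure D5:**
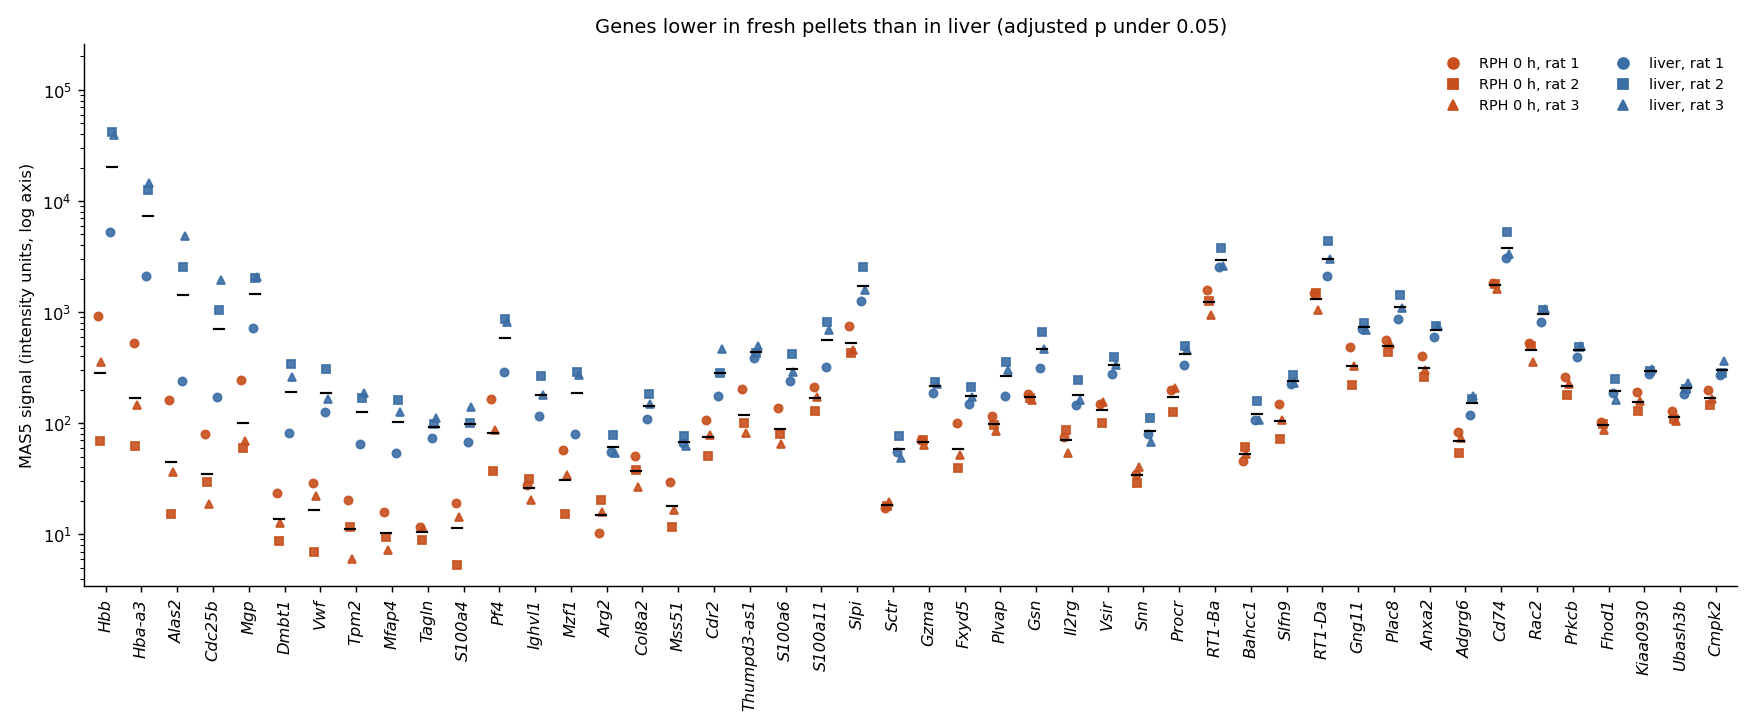
MAS5 signal (log axis) of the 46 genes called lower in pellets, ordered by log2 fold change, with RPH 0 h (orange) left of liver (blue), 1 symbol for each rat and a bar at the mean of the log2 values. Pellets lie below livers for every gene, with the largest fold changes for Hbb and Hba-a3.

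Cytoskeletal genes were mostly lower. Of 39 actin, tubulin and early adhesion genes, Rhob rose, 3 fell and 29 had a negative log2 fold change. At an unadjusted p under 0.05 there were 2 higher and 15 lower, where 2.11% and 11.2% of all genes were. The median of -0.43 was -0.05 with centred arrays, when all genes were at 0.30, and -0.13 without rat 2, when all genes were at -0.06. Relative to all genes it was -0.35 as deposited and -0.07 without rat 2. Centring shifts every gene alike and leaves that distance as it was. Anxa2, an actin-binding annexin, had 403, 259 and 304 in pellets, against 602, 748 and 744 in liver (log2 change of -1.13, SE 0.20, adjusted p = 0.0257). The calcium-binding S100a11 and S100a6 were at -1.75 and -1.79, with no overlap between groups. Fibroblasts, bile duct cells and leukocytes are also known to express all 3 genes, and other-cell lists moved in the same samples, but the part of those cells in this group was not tested.

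Genes in no list supplied 24 of the 46 called lower. The furthest was Cdc25b, a cell cycle phosphatase, with 79.7, 29.3 and 18.6 in pellets, against 172, 1050 and 1965 in liver (log2 change of -4.33, SE 0.87, adjusted p = 0.0466, and 0.0571 with the block), so that its livers were ordered as those of Alas2. Dmbt1, a mucosal scavenger receptor gene of epithelia, had 23.6, 8.70 and 12.6 in pellets, against 81.8, 339 and 259 in liver (-3.81, SE 0.65, adjusted p = 0.0257). S100a4, a calcium-binding protein of fibroblasts and leukocytes, was at -3.11 and Ighvl1, an immunoglobulin heavy chain gene, at -2.77. Both had no overlap between groups. Others with known roles were Il2rg, the common chain of interleukin receptors (-1.33), Vsir, an immune checkpoint gene (-1.33), Gsn, the actin-severing gelsolin gene (-1.43), Col8a2, a collagen of basement membranes (-1.95), and Arg2, the mitochondrial arginase (-2.04, and adjusted p = 0.0602 with the block). Among the remaining unlisted ones in the naming rule, Mzf1, Mss51, Cdr2, Thumpd3-as1, Fxyd5 and Snn ran from -2.57 to -1.30, and the block ended the call of Mss51 (adjusted p = 0.0509). Which strand the probes of Thumpd3-as1, an antisense transcript, measure was not checked.

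The genes called lower were followed to 4 h, against the livers by which they had been chosen, so the counts at 4 h are a description. Of the 46 genes, 38 were called lower at 4 h (29.8% of all genes) and 2 were called higher, Anxa2 (log2 fold change 0.69 at 4 h) and Cdr2 (1.76). Vwf was at -4.71 at 4 h beside -3.50 at 0 h, and Hbb at -7.10 beside -6.16. Of the 403 genes more than 2-fold lower, most of the called ones included, 282 were in no list (2.93% of such genes), 94 in other-cell lists (28.6%), 27 in stress lists (5.96%) and 2 in hepatocyte lists (0.738%), and some genes are in lists of 2 kinds.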

How the data were processed

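RNA of 3 livers and 3 pellets, with the later cultures, was hybridized to Affymetrix RG230-2 arrays. The deposited values are linear signal intensities that the authors computed with MAS5 and scaled to a mean of 500 after trimming 2% at each end, and the sources used here name both Command Console and the affy package for this step. Technical arrays of a rat were averaged as log2 signals, with nothing added. Of 31099 probe sets, 20826 have 1 listed gene, and 14553 of these were above the array median in at least 5 of 43 arrays. Each gene was represented by its brightest probe set on average, which left 10643 genes. Actb had no probe set among them.

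Groups were compared with limma (version 3.58.1, R version 4.3.3; a linear model over 15 samples and eBayes, 3.28 prior degrees of freedom, Benjamini-Hochberg adjustment over all genes), and 95% intervals are those of the moderated t statistic. Samples of the same rat are paired by animal. The fit without a replicate block is the one reported. On simulated data of this comparison, with 10643 genes and 200 changed, it found 57.1% of changes of log2 1 and 91.1% of log2 2, and 5.3% of calls were false. The simulated noise was independent between genes and samples, with no effect of the rat and no difference in array scaling. The real samples differ in both, so these rates may not hold for the calls reported here.

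The 45 gene lists, written from general knowledge, and the comparison were chosen with earlier results of these data known. The text names up to 4 called genes of each list with the largest change, up to 15 called genes in each direction outside the lists, the 2 genes with the smallest p of lists with no call, and Alb, Glul, Cyp2e1, Hal, Cps1, Hnf4a and Slc10a1. Some marker genes of cell types and all genes called higher are named as well. Alternatives covered scaling, filters, probe sets, technical arrays, the block, the samples in the fit, thresholds and leaving out each sample. The same 3 rats gave the pellets and the livers, and 3 a group limit the precision. Promoter sequences are from RefSeq.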

Additional observations from a re-analysis of the deposited data

How the results depend on the processing

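The calls rest on 3 rats a group and on the spread estimated over all 15 samples. Against 61 genes called (15 higher and 46 lower in pellets), a fit of only the 6 samples called 3 (1 higher, 2 lower), and with the replicate block in that fit 0 (0 and 0), although 1437 and 1634 genes had an unadjusted p under 0.05. The replicate block over 15 samples called 63 genes, 47 of the 61 among them. Centring arrays on their median called 37 (18 lower), an offset of 32 called 132 (114 lower), no filter on low signals 12 (4 higher, 8 lower), a stricter filter on low signals 27 (16 lower), the median of technical arrays 178 (24 higher, 154 lower), technical arrays as units 6 (1 higher, 5 lower), eBayes with trend and robust prior 30 lower, and a threshold of 0.1 called 137 (119 lower). Quantile normalization called 54, 45 of them among the 61. No called gene changed sign under any alternative run.

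Genes of the stress lists called higher were 14, against 0 with the block in 6 samples, 1 with only the 6 samples, 4 without the filter and 1 with technical arrays as units. Genes of the other-cell lists called lower were 19, against 0, 2, 5 and 0 in these fits, 11 with centred arrays, 40 with the offset, 8 with the stricter filter, 47 with the median of technical arrays and 36 at 0.1. With all kept probe sets, 1 gene of the hepatocyte lists was called in place of 0.

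Quantile normalization left 88 genes more than 2-fold higher and 216 lower, centring 114 and 147 and the offset 27 and 166, in place of 44 and 403. Groups did not overlap for 643 genes above and 991 below after quantile normalization and for 2518 and 498 after centring, in place of 394 and 1613. These scalings set the array medians, which were lower in pellets, closer or equal, and the cause of the changes was not tested further.

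Leaving out 1 sample or 1 rat, the genes called ranged between 0 and 209, those higher between 0 and 24 and those lower between 0 and 185. The stress genes called ranged between 0 and 20, the other-cell genes between 0 and 36 and the hepatocyte genes between 0 and 1. The mean absolute log2 fold change ranged between 0.239 and 0.413, genes more than 2-fold higher between 46 and 80, lower between 187 and 873, and groups without overlap between 551 and 1649 above and between 1913 and 3530 below. At 4 h, 4920 genes were called, and between 3225 and 4414 without 1 liver or rat.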

Other observations

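A few bile acid and fasting genes differed widely between animals, and were chosen after their values were seen. Cyp7a1, the rate-limiting enzyme of bile acid synthesis, had signals of 16976, 7522 and 6367 in the pellets of rats 1, 2 and 3, against 18974, 3055 and 4310 in their livers, so that rat 1 was the highest in both. Fgf21, a fasting hormone gene, had 927, 878 and 5910 in pellets, against 449, 335 and 3650 in liver, with rat 3 the highest in both. Nr0b2, the bile acid-responsive repressor SHP, had 5055, 5903 and 1748 in pellets, against 4838, 1362 and 1354 in liver, so that pellet and liver were far apart in rat 2.

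Onecut1, a hepatocyte transcription factor, had 739, 131 and 4347 in pellets, against 782, 5013 and 4755 in liver. The pellets and livers of rats 1 and 3 were close within each animal, whereas in rat 2 they were far apart. After 4 h the signals were 239, 307 and 510. These values bear on single animals and were not tested.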
